A study of Mus musculus with 16 samples.

Results

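Retinal microglia taken at 3 times after optic nerve crush were compared, as a single injured group, with microglia of untreated mice, to find genes whose level differed on all 3 days. All 16 of the 16 libraries of the series entered the comparison: 12 injured libraries, 4 each from days 2, 4 and 7 after the crush, and 4 libraries from day 0. Every mouse carried the reporter that the strain label gives as Iba1-EGFP, the untreated ones included. Day 0 libraries came from mice of 15 weeks with no treatment, those of days 2 and 4 from crushed mice of 13 weeks, and those of day 7 from crushed mice of 16 weeks, so age differed with the day and the 2 cannot be told apart. EGFP-positive cells were sorted from retina for bulk RNA sequencing. The reporter follows Iba1 (Aif1), a gene that microglia share with other macrophages. Nothing in the labels says that libraries of a day came from separate mice, so the p-values cover no more than the variation among these libraries, and that may be technical. By the first 4 digits of the code in the sample titles, batch 1 holds the first 2 replicates of each day and batch 2 the other 2. That is a reading of the titles that the labels do not state. The full codes split further by day. Day 4 shares its full code with day 0 in batch 1 alone, day 2 in batch 2 alone, and day 7 in neither batch. Full code and day therefore cannot be fully told apart.

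Microglia are the resident macrophages of the retina. Optic nerve crush severs the axons of retinal ganglion cells, whose bodies then die slowly in the inner retina, and microglia respond by dividing, by taking up debris and by releasing cytokines and chemokines. Cell division runs on enzymes of DNA synthesis, which are made as cells prepare to copy their DNA. It also runs on cyclins, the mitotic ones being made as cells approach mitosis. Interferons act through a receptor of IFNAR1 and IFNAR2 and induce a broad set of antiviral genes, among them the oligoadenylate synthases and the schlafens.

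Libraries held 8647276 to 15708302 reads, and levels are in FPKM, fragments scaled by gene length and library reads. Aif1 had day 0 levels of 130, 357, 590 and 464 FPKM (replicates 1 to 4) and 373 to 961 FPKM in the injured libraries. RNA of other retinal cells was present throughout and was not even across day 0. The 12 bipolar cell genes summed to 105 to 508 FPKM at day 0 and 16.5 to 423 FPKM after injury, and the 14 Mueller glia and astrocyte genes to 2333 to 4263 FPKM and 600 to 6550 FPKM. Rod genes summed to 3167 to 15594 FPKM and 2479 to 8981 FPKM. Of the defining monocyte markers, Ccr2 was at most 0.18 FPKM in every library, and Ly6c2 reached 18.3 FPKM in day 0 replicate 1, 4.28 FPKM in day 0 replicate 2 and 7.88 FPKM in day 7 replicate 2, with at most 0.254 FPKM elsewhere. The 14 monocyte genes summed to 6.48 to 304 FPKM at day 0 and 4.96 to 118 FPKM after injury. Mean levels of the bipolar and Mueller lists were higher in day 0 replicates 1 and 2 than in replicates 3 and 4, as the plot of list levels per library shows.

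**Figure D1:**
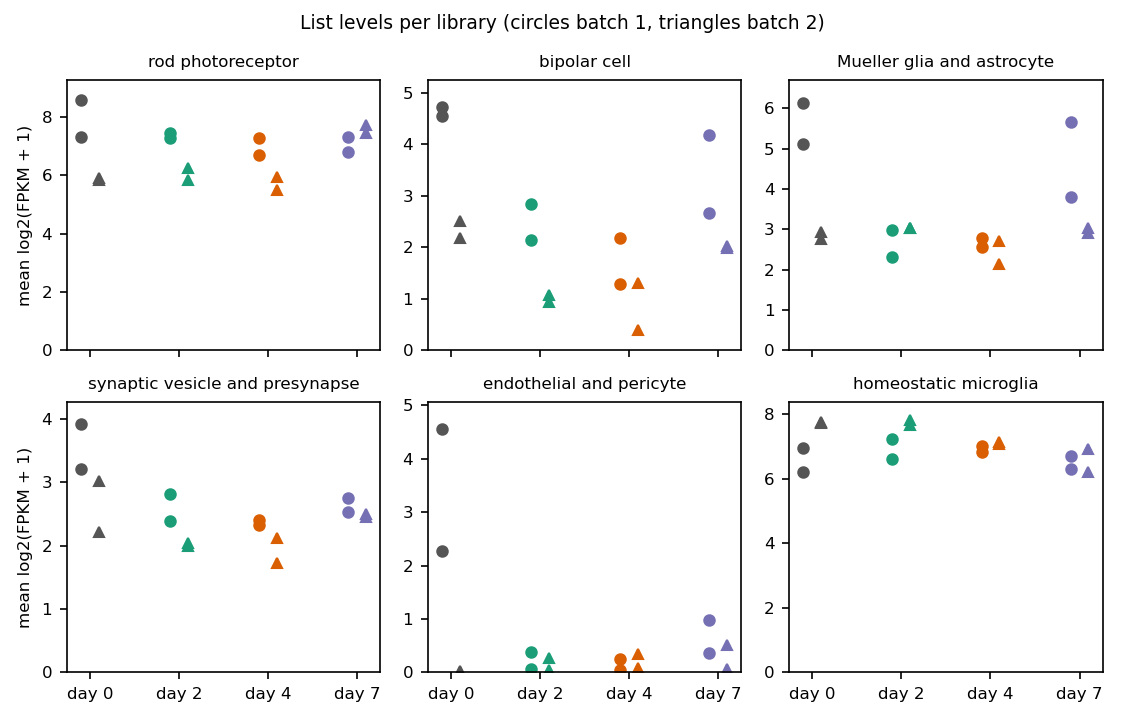
Mean log2(FPKM + 1) of 5 lists of other retinal cells and of the homeostatic microglia list, 1 point per library, by day (circles for batch 1, triangles for batch 2). The bipolar and endothelial lists are highest in the batch 1 libraries of day 0, the Mueller list is high there and in day 7 replicate 1, and the lowest bipolar levels are in libraries of days 2 and 4.

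Averaged over the 3 injured days with equal weight, 238 of 14795 tested genes differed from day 0 (limma, adjusted p under 0.05), which is 1.61% of those tested. Of these, 192 were higher (1.3%) and 46 were lower (0.311%), and 236 had the same sign on each of the 3 days. The genes that rose were led by cell division genes, interferon-induced genes and chemokines. Those that fell included 3 of the 101 tested genes in the lists of other cells. They were the synaptic gene Syn1, the Mueller glia gene Glul and the macrophage gene Lyve1. The median change was 1.55 on the log2(FPKM + 1) scale for the higher genes and −2.26 for the lower ones, against a median of 0.04 over all tested genes. Rescaling the libraries by median-of-ratios factors moved that median of all genes to −0.11 and gave 79 higher and 52 lower genes, so that 60.3% of the calls were higher in place of 80.7%.

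The counts moved with the libraries and the model. With the mean levels of the bipolar and Mueller glia lists as covariates limma called 0 genes, with 681 higher and 555 lower at an unadjusted p under 0.05, and limma voom without these covariates called 55 and 48. The covariates themselves differed between day 0 and the injured days, and some changes were no smaller with them (Slfn2 6.23 in place of 4.63) while others were (Cd52 0.73 in place of 1.63), so the part of other cells' RNA cannot be told apart from that of injury here. Within batch 1 alone 21 genes were higher and 11 lower, and within batch 2 alone 0 and 0 (limma, 1022 and 469 at an unadjusted p under 0.05). Of those in batch 1 alone, 18 higher and 3 lower genes were among the 238. The joint change differed between batches for 4 of all tested genes (0.027%; limma, adjusted p under 0.05) and for 0 of the 238, which were chosen on both batches together, so this is no support for them. The higher count was 78, 80, 98 and 127 without day 0 replicates 1 to 4, 114 and 124 without day 2 replicates 1 and 3, and 112 and 109 without day 4 replicates 1 and 2. The lower count was 20, 29 and 75 without day 0 replicates 1, 2 and 3, 20 and 29 without day 2 replicates 1 and 3, and 27 and 30 without day 4 replicates 1 and 2. Without day 4 as a whole, 33 genes were higher and 9 lower.

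A gene was counted as held when it was called in the joint comparison and all 12 injured libraries lay on the same side of all 4 day 0 libraries. By that rule 32 genes were held higher (0.216% of those tested) and 10 were held lower (0.0676%). Without regard to the test, 56 genes (0.379%) had all 12 injured libraries above day 0 and 17 (0.115%) had all 12 below. Most other called genes missed by a library or a few: 60 higher genes lay above day 0 in 11 of the 12 injured libraries and 46 in 10. Day 7 replicate 2 was the only library that failed for 19 higher genes, and day 2 replicate 4 for 12. Without day 0 replicate 4 the held higher genes numbered 55, and without day 7 replicate 2 they numbered 50. Without day 0 replicates 3 and 4, each in turn, 40 and 31 genes were held lower. Of the 192 higher genes, the day 4 libraries had 183 to 188 above day 0, those of day 2 had 127 to 163 and those of day 7 had 122 to 173.

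**Figure D2:**
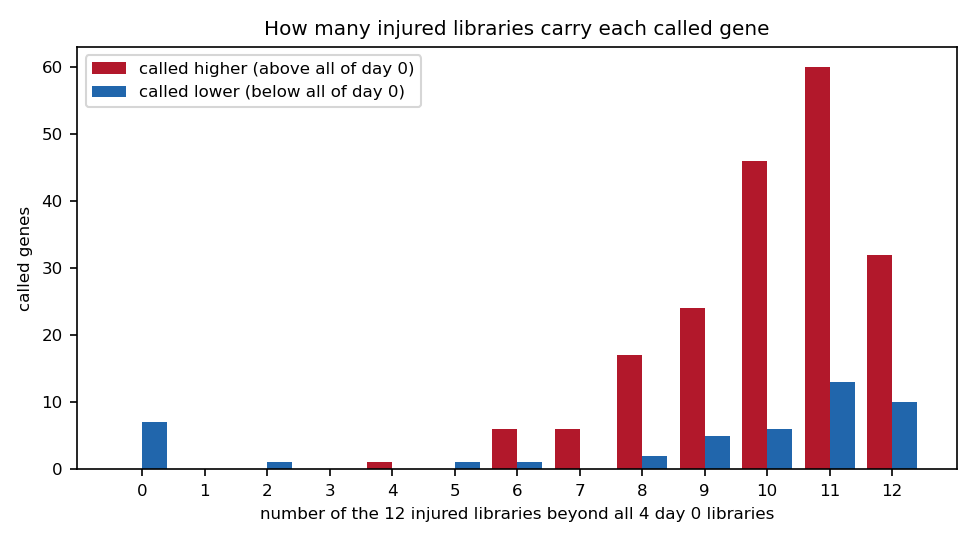
Number of called genes (y axis) by how many of the 12 injured libraries lay above all 4 day 0 libraries (red, genes called higher) or below them (blue, genes called lower). The counts peak at 11 libraries, with 60 higher and 13 lower genes, and fall to 32 and 10 at 12 libraries.

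Of the 32 held higher genes 22 were protein-coding, and 8 were pseudogenes. The 21 with a name rather than a model number make up the upper block of the plot of held genes by library. They included genes of cell division and DNA synthesis (Ccnb2, Birc5, Pclaf, Tipin and Tyms) and of the interferon response (Slfn2 and Oas1a). Others were of the cell surface (Cd72 and Cd52), the proteasome (Psma1, Psme2 and Psme2b) and the mitochondrial ribosome (Mrpl18, Mrpl40 and Mrps18a). The rest were the interferon receptor gene Ifnar2 and Uchl3, Commd9, Dnajc2, Rbm3 and Ap2s1.

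**Figure D3:**
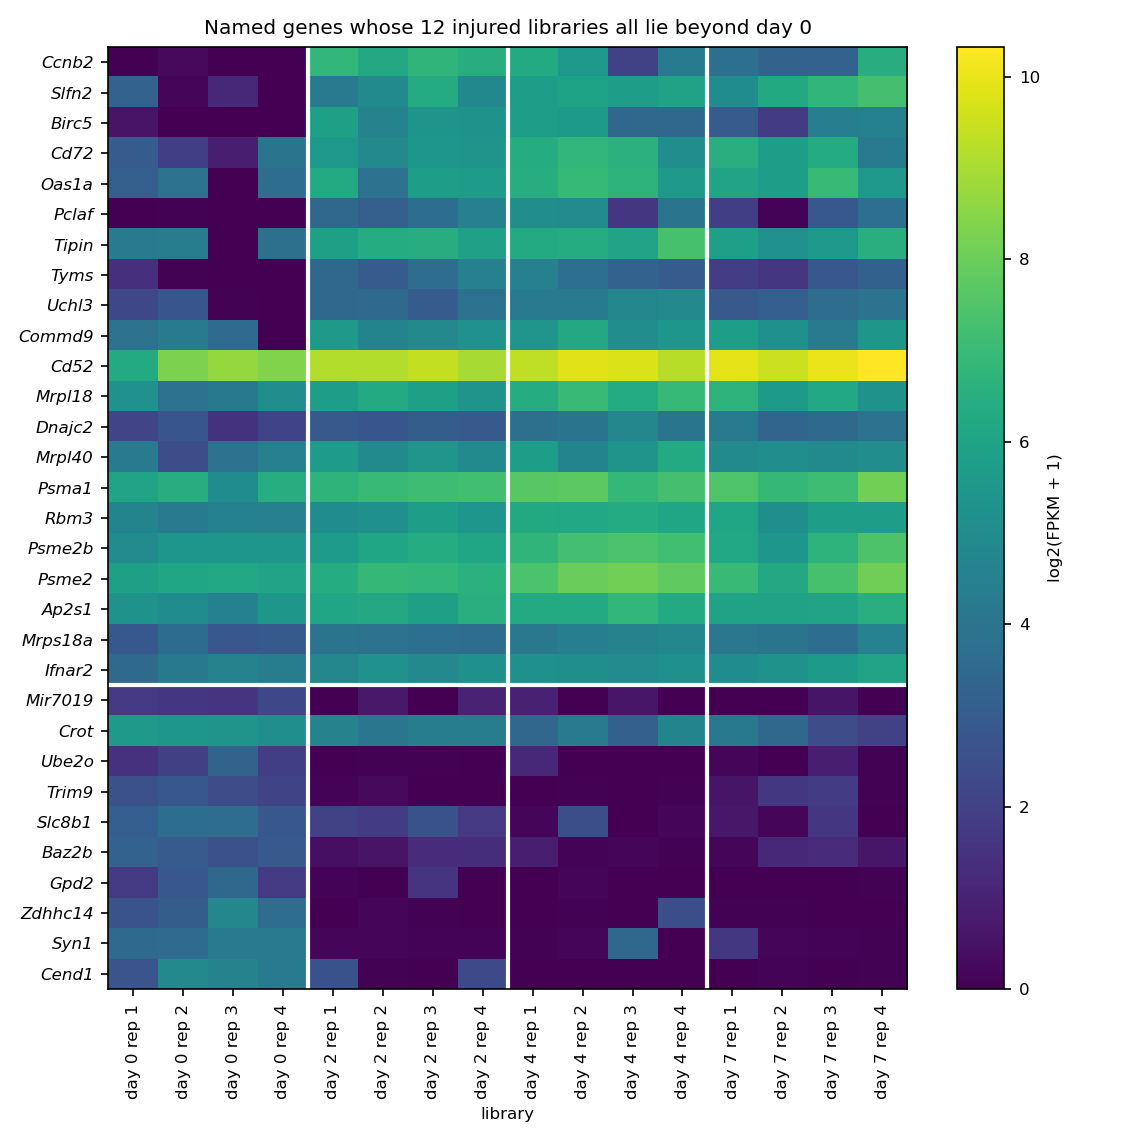
Level in each library, as log2(FPKM + 1) by colour, of the 31 named genes held on all 3 days, with 21 higher genes above the horizontal white line and 10 lower genes below it. Vertical white lines separate the days. In each row the 12 injured libraries all lie on the same side of the 4 day 0 libraries, while their levels vary between days.

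Genes of cell division gave the largest held rise on the log2(FPKM + 1) scale. Ccnb2 (ENSMUSG00000032218.7, chromosome 9, 70407692 to 70421547 in GRCm38) encodes cyclin B2, which drives entry into mitosis with CDK1. At day 0 only replicate 2 had a level above 0, of 0.193 FPKM. In replicates 1 to 4 it was at 112, 74.3, 108 and 86.2 FPKM at day 2, at 79.4, 44, 3.15 and 17.8 FPKM at day 4, and at 12.8, 8.64, 8.41 and 86.1 FPKM at day 7. All 12 injured libraries lay above day 0, with the lowest level in day 4 replicate 3. The joint change was 5.03 ± 0.65 on the log2 scale (SE; limma, adjusted p = 0.00299), with 6.5, 4.46 and 4.12 on days 2, 4 and 7, and 5.20 and 4.86 within batches 1 and 2. Leaving out any single library, in 16 fits, kept the call. It was lost with batch 2 alone (4.86, adjusted p = 0.235) and with the bipolar and Mueller lists as covariates (4.19, adjusted p = 0.474). The size depends on the pseudocount, the 1 added to each FPKM, because day 0 was at or near 0. The change of Ccnb2 was 7.95 with a pseudocount of 0.1 and 3.02 with a pseudocount of 5.

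The promoters of 3 held genes, the largest rise of the cell division genes and a pair of interferon-induced genes, are printed to show which of 3 textbook motifs of these programmes each holds. Each run is the 250 bases before the start of the gene, from RefSeq on GRCm38.p6, read in the direction of the gene. Ccnb2 spans chr9:70421555-70421804 on the minus strand, Slfn2 chr11:83064862-83065111 on the plus strand and Oas1a chr5:120907526-120907775 on the minus strand. Capitals mark CCAAT (the CCAAT box), TTTGAA (the cell cycle homology region, CHR) and the interferon-stimulated response element (ISRE: GAAA, any 2 bases, GAAA), on either strand.
Ccnb2: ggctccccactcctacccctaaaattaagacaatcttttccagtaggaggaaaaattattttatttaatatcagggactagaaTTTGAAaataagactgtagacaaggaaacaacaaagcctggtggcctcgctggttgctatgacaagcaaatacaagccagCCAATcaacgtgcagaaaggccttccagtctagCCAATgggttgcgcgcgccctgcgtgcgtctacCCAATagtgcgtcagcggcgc
Slfn2: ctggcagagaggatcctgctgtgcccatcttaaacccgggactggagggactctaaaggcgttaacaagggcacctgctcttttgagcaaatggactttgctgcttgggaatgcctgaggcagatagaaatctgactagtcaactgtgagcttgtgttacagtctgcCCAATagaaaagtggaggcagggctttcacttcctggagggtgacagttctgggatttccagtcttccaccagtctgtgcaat
Oas1a: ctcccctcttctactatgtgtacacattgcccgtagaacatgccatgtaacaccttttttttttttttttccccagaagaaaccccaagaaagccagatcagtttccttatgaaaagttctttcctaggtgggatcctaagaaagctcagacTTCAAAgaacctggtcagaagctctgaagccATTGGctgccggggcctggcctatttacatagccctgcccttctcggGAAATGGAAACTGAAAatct
Ccnb2 held CCAAT 3 times, beginning 87, 54 and 21 bases before the start, and TTTGAA 167 bases before it. Oas1a held a pair of overlapping ISRE matches, beginning 20 and 14 bases before the start, and on the opposite strand a CCAAT match at 67 bases and a TTTGAA match at 98 bases. Slfn2 held a single CCAAT, 83 bases before the start, and no ISRE match. Over 32851 promoter windows of the table, CCAAT was found in 33.8%, TTTGAA in 16.0% and the ISRE in 3.0%. Among the 17 held higher named genes with a window, 7 held CCAAT, 2 held TTTGAA and 1 held the ISRE. A gene counted if any of its windows matched, so these counts are not on the scale of the percentages, which are per window. The GC box (GGGCGG) and TATA box (TATAAA) were searched as well, and 7 and 0 of the 17 genes held them. No match says only that these letters are not in the window.

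Birc5 (ENSMUSG00000017716.15, chromosome 11) encodes survivin, which is needed to segregate chromosomes. At day 0 it was at 0.46 FPKM in replicate 1, at 0.0227 FPKM in replicate 3 and listed at 0 in the other 2. The injured libraries ran from 2.55 FPKM in day 7 replicate 2 to 56.6 FPKM in day 2 replicate 1, with a median of 22.8 FPKM. The joint change was 4.29 ± 0.55 (limma, adjusted p = 0.00299), with 5.13, 4.44 and 3.30 on days 2, 4 and 7, and the call was kept in all 16 fits without a library. As for Ccnb2, the size was greatest at day 2, but neither passed the F test of a difference among the injured days (limma, adjusted p = 0.32 for Birc5 and 0.229 for Ccnb2).

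Tyms, thymidylate synthase, makes the thymidine nucleotide for DNA. It was at 1.69 FPKM in day 0 replicate 1 and at most 0.0484 FPKM in the other day 0 libraries, against 2.11 to 21.9 FPKM after injury (median of 8.35). Its joint change was 2.85 ± 0.44 (limma, adjusted p = 0.00666), kept in all 16 fits without a library. Tipin, which protects stalled replication forks, was listed at 0 in day 0 replicate 3 and at 17.3, 19.8 and 12.9 FPKM in replicates 1, 2 and 4, against 36 to 157 FPKM after injury. It rose by 3.05 ± 0.59 (adjusted p = 0.0211), with 1.71 within batch 1 and 4.38 within batch 2.

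Pclaf, which binds the replication clamp PCNA, was at most 0.0409 FPKM at day 0. The injured libraries ran from 0.0644 FPKM in day 7 replicate 2 to 33 FPKM in day 4 replicate 1, so that its lowest injured library barely cleared day 0 and both levels are below the 0.31 FPKM that 3 reads in a gene of 1 kb are worth there. Its rise of 3.24 ± 0.65 (limma, adjusted p = 0.0256) was lost without any single day 0 library (adjusted p = 0.0786, 0.0704, 0.0642 and 0.0601 without replicates 1 to 4). The rise was 6.02 with a pseudocount of 0.1 and 1.58 with one of 5, where the call was lost (limma, adjusted p = 0.0614).

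Of 78 tested genes in the 3 lists of replication, mitosis and cell cycle control, 15 rose and 0 fell, 3 of them held, with a median change of 1.65, where 1.3% of all tested genes rose. Of these calls 12 were among the 35 mitosis genes, 2 among the 27 replication genes and 1 among the 16 genes of G1 control. Of the mitosis genes 34 of the 35 had positive changes, with or without a call, and a median of 2.37. That median was 3.15 at day 2, 2.52 at day 4 and 0.88 at day 7. The mitotic kinase gene Pbk had a rise of 4.91 ± 0.77 (limma, adjusted p = 0.00685) and was above day 0 in 11 of 12 libraries, being listed at 0 in day 7 replicate 2. Ube2c, which tags mitotic cyclins for destruction, rose by 3.95 ± 0.77 (adjusted p = 0.0211) and was at 0.269 FPKM in day 4 replicate 4, the library of the 12 that overlapped day 0, and 22.8% of its exon bases overlap antisense Tnnc2. Cks2, a partner of the cyclin-dependent kinases, rose by 3.48 ± 0.66 (adjusted p = 0.0182), with 9.5 and 4.31 FPKM in day 7 replicates 1 and 2 below the 13.2 FPKM of day 0 replicate 3. The calls of Ube2c and Cks2 were each lost in 2 of the 16 fits without a library. Pcna rose by 1.73 ± 0.40 (adjusted p = 0.0432), a call kept in 2 of the 16 fits, while Tk1, Mcm5 and Rrm2 had changes of 2.79, 3.20 and 3.54 that did not pass the test (adjusted p = 0.101, 0.0965 and 0.109).

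Some unnamed held genes are near-identical copies of cell division genes, so reads of copy and parent cannot be separated. Gm15452 and Gm19945 are 100% and 99.6% identical to Cks2 over their length, and Gm8203 and Gm6722 are 100% and 96.9% identical to H2afz, the histone variant H2A.Z. Rbm3 and its near-identical copies Gm10156, Gm48583 and Rbm3-ps were held, and a further copy, Gm13624 (96.8% identity), was called higher but not held. In all, 13 of the 32 held higher genes, and 87 of the 192 called higher genes, had a near-identical copy (at least 95% identity over at least 50% of the transcript). Of the 46 called lower genes 3 had one. Copies were sought for called genes alone, so the share over all tested genes is not known. The 192 genes may count the same reads more than once.

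The interferon-induced gene Slfn2 gave the next largest held rise on the log2(FPKM + 1) scale. It encodes a schlafen that keeps immune cells quiescent and lies on chromosome 11 (ENSMUSG00000072620.3, 83065112 to 83070678). Its day 0 levels were 8.46, 0.118 and 1.25 FPKM, with replicate 4 listed at 0. In replicates 1 to 4 it was at 17.9, 29.7, 79.7 and 27 FPKM at day 2, at 53.4, 62.4, 54.5 and 61.4 FPKM at day 4, and at 31.9, 76.5, 111 and 156 FPKM at day 7. Every injured library lay above the highest of day 0. The joint change was 4.63 ± 0.54 (limma, adjusted p = 0.00222), with 3.94, 4.73 and 5.21 on days 2, 4 and 7, kept in all 16 fits without a library and lost within each batch alone (adjusted p = 0.0797 and 0.0608). The order of the largest rises moved with the pseudocount. With a pseudocount of 5, Slfn2 (3.12) lay above Ccnb2 (3.02). With a pseudocount of 0.1, Slfn2 (6.24) lay below Birc5 (6.96).

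Oas1a encodes an oligoadenylate synthase that activates RNase L when it meets double-stranded RNA. It was at 7.7, 13.7, 0 and 11.9 FPKM at day 0 and at 13.9 to 123 FPKM after injury (median of 58.9), with day 2 replicate 2, at 13.9 FPKM, just above the highest of day 0. It rose by 3.29 ± 0.60 (limma, adjusted p = 0.0156), with 2.74, 3.72 and 3.39 on the 3 days and 2.39 and 4.18 within the batches. Its transcript is 97.6% identical to Oas1g, so the level of either gene is uncertain. Ifnar2, a chain of the type I interferon receptor, is not in the interferon response list. As a held gene outside the naming rule, it was named after its values were seen. It was at 10.8 to 23.5 FPKM at day 0 and 26.3 to 63.4 FPKM after injury. It rose by 1.04 ± 0.22 (adjusted p = 0.031), in 10 of the 16 fits without a library.

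Of 35 tested interferon response genes 10 rose and 0 fell, 2 of them held. Over all tested genes 1.3% rose and 0.216% were held higher. The median change of the list was 1.37, with 1.01, 1.44 and 2.21 on days 2, 4 and 7. Ms4a4c, an interferon-induced membrane protein of myeloid cells, rose by 3.32 ± 0.49 (limma, adjusted p = 0.0063) but differed among the injured days (F test, adjusted p = 0.0324). It was at 47.7 to 108 FPKM at day 7 against 3.81 to 16.2 FPKM at days 2 and 4, with 8.11 FPKM in day 0 replicate 4. Ifi211, an interferon-induced nucleic acid sensor of the AIM2-like family, rose by 2.47 ± 0.38 (adjusted p = 0.0063) in 11 of 12 libraries, and no single library decided that call. Over 77.6% of its transcript Ifi211 is 96.9% identical to Ifi204, which was also called higher, so the level of either gene is uncertain. Ifit1, an antiviral RNA-binding protein, was at 11.3 FPKM in day 0 replicate 1 and listed at 0 in the other 3, and reached 164 FPKM in day 7 replicate 1. Its rise of 3.01 ± 0.70 (adjusted p = 0.0469) was kept in 3 of the 16 fits.

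Among surface proteins, Cd72, an inhibitory receptor known from B cells, was at 7.01, 2.76, 0.812 and 14.8 FPKM at day 0. After injury it was at 18.6 to 113 FPKM, with a median of 49.2 FPKM, the lowest in day 7 replicate 4. The rise was 3.31 ± 0.50 (limma, adjusted p = 0.0063), with 2.84, 3.79 and 3.29 on days 2, 4 and 7. Antisense Tesk1 covers 41.6% of its exon bases, and without strand the reads of the 2 genes cannot be told apart. Cd52, a small glycoprotein of leukocyte membranes, was abundant at 78.6, 311, 409 and 326 FPKM at day 0 and 495 to 1280.4 FPKM after injury. It rose by 1.63 ± 0.30 (adjusted p = 0.0156), with 1.24, 1.63 and 2.02 on days 2, 4 and 7 and 2.17 and 1.09 within the batches, and its 14.5% overlap with antisense Crybg2 leaves a part of its reads uncertain.

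Cd52 was the only held member of the disease-associated microglia list, which names genes that microglia raise around plaques and dying neurons. Of its 30 tested genes 7 rose (1.3% of all tested genes did) and 0 fell, with a median of 0.71. Clec7a, a receptor for fungal glucans, was at 41.6 to 151 FPKM at day 0, 50.2 to 187 FPKM at day 2 and 316 to 648 FPKM at days 4 and 7. Its joint rise of 1.45 ± 0.31 (limma, adjusted p = 0.031) therefore came with a difference among the injured days (F test, adjusted p = 0.0208), and was lost without day 0 replicates 1 or 2, day 2 replicate 1, or day 4 replicates 1 or 2. Cd68, a lysosomal protein of phagocytes, rose by 1.17 ± 0.24 (adjusted p = 0.0291), with 0.94, 1.30 and 1.28 on days 2, 4 and 7. Cd68 lay above day 0 in 9 of 12 libraries, with 1.80 within batch 1 and 0.54 within batch 2. Lpl, lipoprotein lipase, rose by 2.56 ± 0.60 (adjusted p = 0.0469), in 3 of the 16 fits without a library. Fcgr1, the high-affinity receptor for IgG, rose by 1.58 ± 0.30 (adjusted p = 0.0171) in 11 of 12 libraries. The calls of Cd68 and Fcgr1 were both lost without day 0 replicate 1 or 2.

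Protein turnover and the mitochondrial ribosome gave smaller held rises from higher levels. Psme2, a subunit of the PA28 activator that opens the proteasome and is induced by interferon-gamma, was at 57.1, 67.3, 70.8 and 64.3 FPKM at day 0 and 73.7 to 282 FPKM after injury. It rose by 1.18 ± 0.23 (limma, adjusted p = 0.022). Its near-identical copy Psme2b (99.4% identity) changed alike, by 1.23, and the calls of both were lost without day 0 replicate 1, 3 or 4 (adjusted p from 0.0525 to 0.0665). Psma1, a subunit of the proteasome core, rose by 1.28 ± 0.28 (adjusted p = 0.0372), kept in 6 of the 16 fits. Of 30 tested proteasome genes 4 rose, where 1.3% of all tested genes did. Changes were upward in 29, with a median of 0.65, and still in 29 with median-of-ratios factors.

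The mitochondrial ribosomal proteins Mrpl18, Mrpl40 and Mrps18a rose by 1.57 ± 0.30, 1.48 ± 0.35 and 1.08 ± 0.25 (limma, adjusted p = 0.019, 0.0469 and 0.0469). Their calls were kept in 14, 1 and 2 of the 16 fits without a library, and 10.1% of the exon bases of Mrpl18 overlap antisense Tcp1. Mrps18a was the held gene of the mitochondrial ribosome and import list. Of its 35 tested members 3 rose (1.3% of all tested genes did), with a median of 0.79.

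The remaining held rises had varied roles. Rbm3, an RNA-binding protein induced by cold, was at 24, 17.9, 22.3 and 21.7 FPKM at day 0 and 31.1 to 81.5 FPKM after injury. It rose by 1.27 ± 0.20 (limma, adjusted p = 0.00728) in all 16 fits without a library, with 1.20 and 1.34 within the batches. Ap2s1, a subunit of the clathrin adaptor AP-2, rose by 1.17 ± 0.21 (adjusted p = 0.0129) with 1.10, 1.36 and 1.04 on days 2, 4 and 7, also in all 16 fits. Uchl3, a ubiquitin hydrolase, rose by 2.53 ± 0.47 (adjusted p = 0.0156), with 1.08 within batch 1 and 3.98 within batch 2, and its call was lost without day 0 replicate 3 or 4 (adjusted p = 0.0523 and 0.0521). Dnajc2, a ribosome-associated chaperone, rose by 1.48 ± 0.30 (adjusted p = 0.0266), lost without day 0 replicates 1, 3 or 4 (adjusted p = 0.0798, 0.0835 and 0.0625). Commd9, which takes part in endosomal sorting, rose by 2.32 ± 0.53 (adjusted p = 0.0428), in 3 of the 16 fits.

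**Figure D4:**
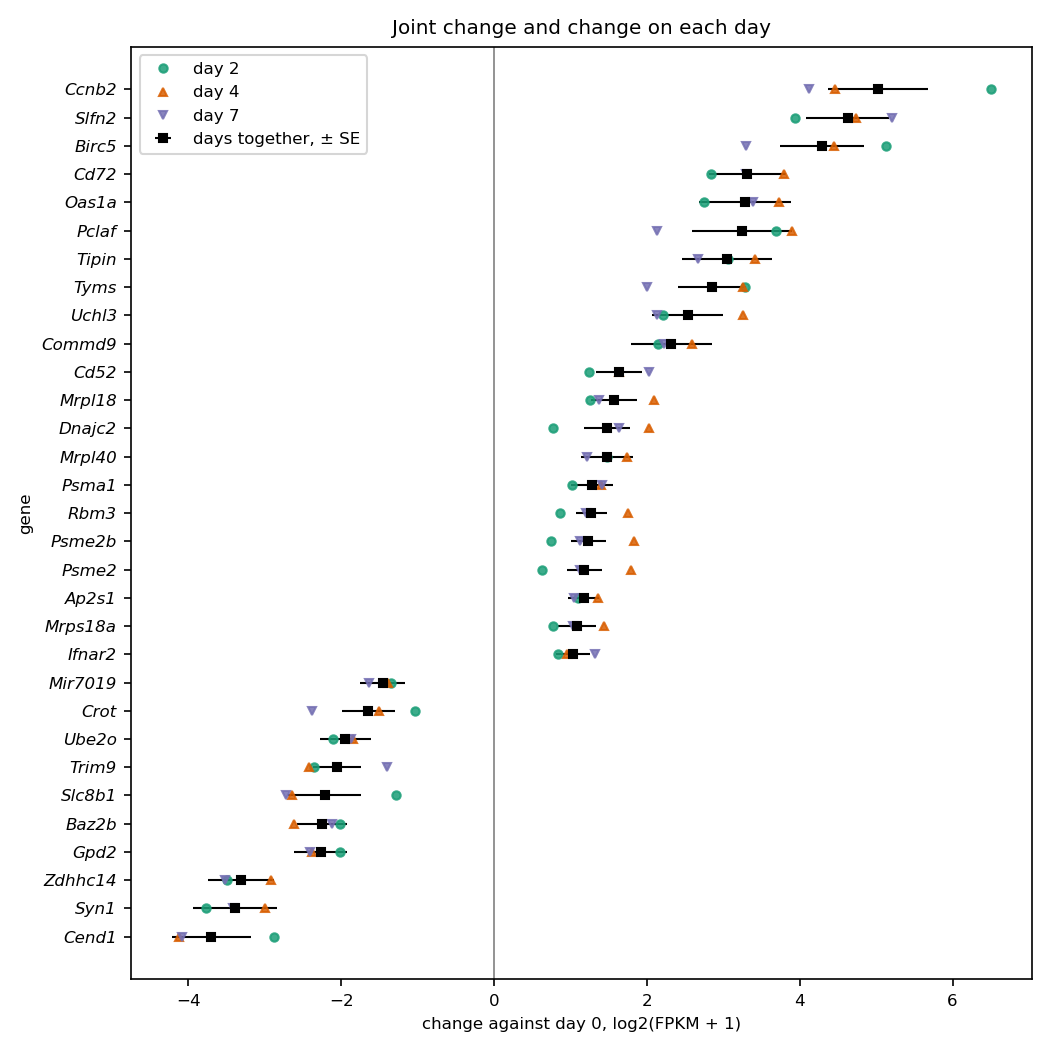
Change against day 0 on the log2(FPKM + 1) scale for the 31 named held genes: black squares with SE for the 3 days together and coloured points for each day. All points of a gene lie on the same side of 0. Cend1 was listed at 0 in all day 4 libraries, so its day 4 point depends on the pseudocount.

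Chemokines and cytokines were called in the joint comparison but none was held. Of 16 tested genes in that list 5 rose (Ccl12, Ccl4, Ccl3, Ccl2 and Cxcl10) and 0 fell, where 1.3% of all tested genes rose. All 16 changed upward, and the median of 1.19 was 0.52, 1.59 and 1.79 on days 2, 4 and 7. Ccl12, which attracts monocytes, was at 65.6, 420, 350 and 432 FPKM at day 0. It was at 617, 375, 980 and 582 FPKM at day 2, at 4923 to 12112 FPKM at day 4 and at 1089 to 2668 FPKM at day 7, so that day 2 replicate 2 was the library that overlapped day 0. Its joint rise was 2.90 ± 0.35 (limma, adjusted p = 0.00222), with 1.24, 4.86 and 2.59 on the 3 days and a difference among them (F test, adjusted p = 0.0039). Ccl4, Ccl3 and Ccl2 had joint rises of 3.09 ± 0.53, 2.44 ± 0.49 and 3.57 ± 0.69 (adjusted p = 0.0113, 0.023 and 0.0211) and also differed among the days (F test, adjusted p = 0.0213, 0.0223 and 0.0483). Their day 2 changes were 0.84, 0.46 and 1.26. The call of Ccl4 was kept in all 16 fits without a library, that of Ccl3 was lost without day 0 replicate 1 or 4, and that of Ccl2 without day 0 replicate 1, 3 or 4. Cxcl10 rose by 3.56 ± 0.76 (adjusted p = 0.0316) and did not pass the F test (adjusted p = 0.0724), although it was at most 5.8 FPKM at day 2 and at least 19.1 FPKM at days 4 and 7. Its call was kept in 9 of the 16 fits, being lost without day 0 replicates 1, 3 or 4, day 2 replicates 1 or 3, or day 4 replicates 1 or 2.

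Of the 10 genes tied to the title of the series only Il1a, which encodes IL-1α, passed the joint test. It was at 7.13, 0, 0.156 and 48.6 FPKM at day 0 and above all of these in 9 of 12 injured libraries, the exceptions being day 2 replicates 1 and 2 and day 7 replicate 4. The joint rise was 4.05 ± 0.94 (limma, adjusted p = 0.0462), kept in 3 of the 16 fits without a library, and 11.2% of its exon bases overlap another gene. Tnf and Gpr84, the fatty acid receptor, had joint changes of 2.80 ± 0.70 and 1.28 ± 0.35 that did not pass (adjusted p = 0.0607 and 0.0875), and 39.5% of the exon bases of Gpr84 overlap antisense Gm49482. Rhoa, Rock1 and Rock2 had 0.26, −0.80 and −1.39, and C1qa, C1qb and C1qc had 0.27, 0.40 and 0.60, with adjusted p from 0.207 to 0.576 for these 6 genes.

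Genes that fell were fewer, and most of the 10 held ones were listed at or near 0 after injury. In bulk RNA fewer cells of a type and less RNA per cell cannot be told apart. Cend1, which helps neuronal precursors leave the cell cycle, was at 5.58, 28, 23.2 and 18.9 FPKM at day 0. Replicates 1 and 4 of day 2 had 5.08 and 3.85 FPKM, with at most 0.0582 FPKM in the other injured libraries, with all 4 of day 4 listed at 0. The joint change was −3.70 ± 0.51 (limma, adjusted p = 0.00543), kept in all 16 fits without a library. Syn1, the synaptic vesicle protein synapsin I, was at 10.5, 11, 17.6 and 18.5 FPKM at day 0, and after injury at 9.84 FPKM in day 4 replicate 3, at 2.2 FPKM in day 7 replicate 1 and at most 0.123 FPKM elsewhere. It fell by 3.39 ± 0.55 on the log2 scale (adjusted p = 0.00823).

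Zdhhc14, a palmitoyltransferase, was at 5.42, 7.22, 26.5 and 12 FPKM at day 0, at 4.65 FPKM in day 4 replicate 4 and at most 0.145 FPKM in the other 11 injured libraries. Its change was −3.31 ± 0.43 (limma, adjusted p = 0.00299). Gpd2, the mitochondrial glycerol-3-phosphate dehydrogenase, was at 2.37 to 9.83 FPKM at day 0, at 1.89 FPKM in day 2 replicate 3 and at most 0.138 FPKM in the others, a change of −2.27 ± 0.35 (adjusted p = 0.0063). Baz2b, a bromodomain protein of chromatin, went from 4.97 to 8.38 FPKM at day 0 to at most 1.54 FPKM, a change of −2.25 ± 0.33 (adjusted p = 0.0063). Each of these 3 calls was kept in all 16 fits without a library.

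Slc8b1, the mitochondrial sodium-calcium exchanger, and Crot, a peroxisomal carnitine acyltransferase, fell less securely. Their changes were −2.22 ± 0.48 and −1.64 ± 0.35 (limma, adjusted p = 0.035 and 0.0329), kept in 4 and 9 of the 16 fits. Crot was the held lower gene with the highest injured levels, at 34.6 to 47.3 FPKM at day 0 and 3.09 to 24.4 FPKM after injury. The other held lower genes, named after their values were seen because they lie under the 5 FPKM minimum or are a microRNA gene, were the ubiquitin ligase Trim9 (−2.06), the ubiquitin-conjugating enzyme Ube2o (−1.95) and Mir7019 (−1.46). Mir7019 lies within an exon of Pink1, so reads of the 2 genes cannot be separated.

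Several lists of other retinal cells had negative medians beside these falls, while that of the rod list was −0.06. Of the 12 bipolar cell genes 0 were called and all 12 had negative changes, with a median of −1.61 (−1.89 and −1.06 within batches 1 and 2). The 14 Mueller glia and astrocyte genes had a median of −1.18, which was −2.55 within batch 1 and −0.12 within batch 2. One of them was called, Glul, the glutamine synthetase of Mueller glia (−1.41 ± 0.33, limma, adjusted p = 0.0472, kept in 2 of the 16 fits), at 322, 140, 63.9 and 51.9 FPKM at day 0 and 16.9 to 79 FPKM after injury. The 18 tested synaptic genes, Syn1 among them, had a median of −1.06, and the 3 tested endothelial genes one of −1.78. The endothelial median was −3.95 within batch 1 and 0.48 within batch 2, and −0.97 without day 0 replicate 1. With the bipolar and Mueller lists as covariates none of the 7 held falls that the naming rule took passed (limma, adjusted p from 0.337 to 0.653). Their changes were then −4.73 for Cend1, −4.35 for Syn1, −2.90 for Zdhhc14, −2.28 for Gpd2, −2.22 for Slc8b1, −2.0 for Baz2b and −1.22 for Crot.

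Lyve1, a hyaluronan receptor of lymphatic vessels and border-associated macrophages, fell outside the held set. It was at 3.36, 13.9, 12.7 and 7.89 FPKM at day 0, at 5.8 FPKM in day 2 replicate 4 and at most 1.58 FPKM in the other 11 injured libraries. The change was −2.66 ± 0.43 (limma, adjusted p = 0.00823), kept in all 16 fits, with −2.82 and −2.50 within the batches. It was the only called gene of the 9 tested genes of that macrophage list, whose median was 0.55. Mrc1, a defining marker of these cells, had a change of 0.44 (adjusted p = 0.836), and Cd163 was at most 0.0573 FPKM at day 0 and reached 1 FPKM in 2 of the 12 injured libraries.

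Across the 30 lists of cell processes, 62 of 693 tested members rose and 0 fell, and 20 lists held a called gene. Over all tested genes 1.3% rose and 0.311% fell. The homeostatic microglia list, genes that mark resting microglia, had 0 of 25 called and a median of −0.32, with 0.12, −0.16 and −0.75 on days 2, 4 and 7. The median was 0.03 within batch 1 and −0.63 within batch 2. These genes summed to 12793 to 54436 FPKM at day 0 (median of 44311) and 14501 to 40265 FPKM after injury (median of 23145). Oxidative phosphorylation had 0 of 43 called and 40 upward, with a median of 0.45. The cytosolic ribosomal proteins were upward in 46 of 46, at a median of 0.42, but in 35 of 46 with median-of-ratios factors and in 12 of 46, at a median of −0.16, with the bipolar and Mueller lists as covariates. Of all tested genes 52.7% were upward. With those covariates the medians were 1.56 for mitosis, 0.87 for interferon, 0.23 for disease-associated and −0.98 for homeostatic genes. Splicing genes had 4 of 30 called, among them the core spliceosomal protein Snrpe (1.65 ± 0.31, limma, adjusted p = 0.0171). Glycolysis and cholesterol synthesis had 0 called and medians of −0.34 and −0.29.

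**Figure D5:**
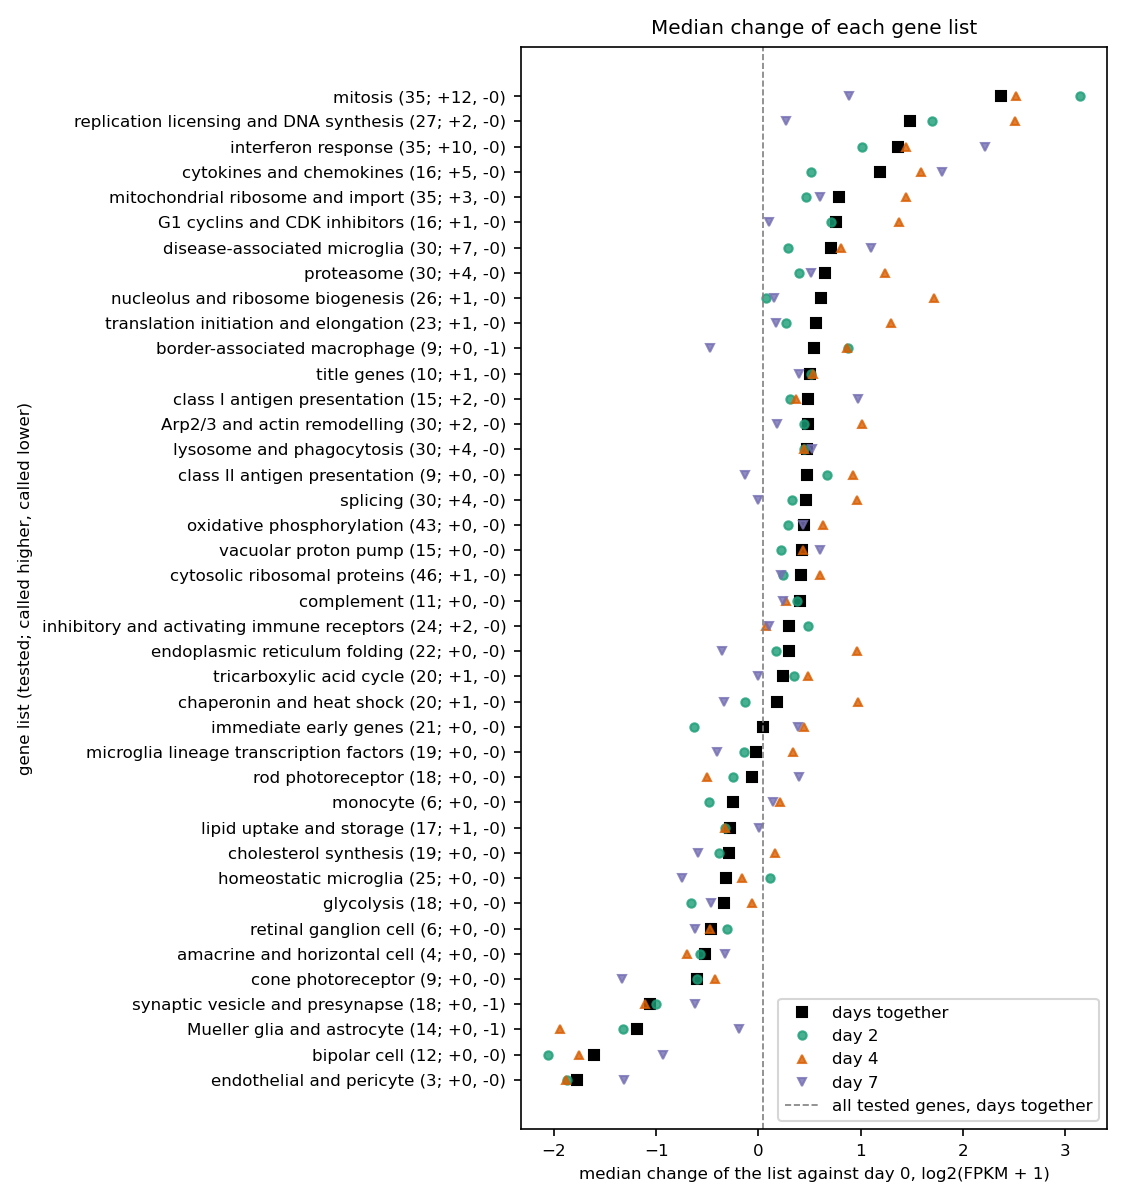
Median change of each gene list with at least 3 tested members on the log2(FPKM + 1) scale, for the days together (squares) and each day (coloured points); the dashed line is the median of all tested genes. Labels give the number tested and called higher (+) or lower (-). Mitosis, replication, interferon and chemokine lists lie highest and the endothelial, bipolar, Mueller and synaptic lists lowest.

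The strictest reading, a test that each of the 3 days differs from day 0, passed for 0 of 14795 genes (limma, largest of the 3 p-values, smallest adjusted p of 0.407), with 370 (2.5%) at an unadjusted p under 0.05 on every day. Of the 42 held genes 41 were among those 370, which the rule for held genes nearly fixes. The F test among the injured days passed for 203 genes (1.37%), of which 43 were among the 238 called and 1 (Gm10039) among the 42 held. Day by day, limma called 46 genes at day 2 (0.311%), 790 at day 4 (5.34%) and 60 at day 7 (0.406%), in comparisons that share the day 0 libraries. The F test count fell most without day 4 replicates 1 to 4 (75, 46, 96 and 67 genes) and without day 7 replicate 2 (90), and was 117, 120 and 128 without day 2 replicates 1, 3 and 4. A gene that does not pass the F test is not thereby shown to be even over the days. The day 4 change was the largest of the 3 in 125 of the 192 higher genes and in 20 of the 32 held ones. Of the 46 lower genes it was the largest in 21, and of the 10 held lower genes in 3.

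The changes moved with gene length. In 5 equal bins from the shortest to the longest tested genes the median joint change was 0.29, 0.14, 0.02, −0.15 and −0.24, with 68, 63, 33, 23 and 5 genes called higher and 2, 9, 12, 8 and 15 called lower. The median length was 1243 bases for the called higher genes and 4052 bases for the called lower genes, against 3075 bases for all tested genes, and 1566 and 4376 bases for the held higher and lower ones. From the shortest to the longest bin the medians were 0.4, 0.09, −0.156, −0.362 and −0.397 within batch 1. Within batch 2 they were 0.209, 0.266, 0.205, 0.1 and 0.039. The part of length in the calls was not tested.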

How the data were processed

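FPKM per gene and library were deposited by the authors for 55385 genes, after mapping with STAR 2.7.2b and counting with featureCounts 1.6.1 on GRCm38.p6 (mm10); these names are from the submitters' processing notes. The treatment of multi-mapping reads is not stated there. The kit does not mark strand. Library reads were worked out from the FPKM, taking the most common product of FPKM and length above 0 as 1 read. Values came out as whole reads (within 0.02) for 47.4% to 63.8% of genes above 0, and as whole hundredths of a read for 100%. The main test therefore did not treat them as counts, while the voom alternative did. A value of 0 in a gene of 1 kb allows up to 0.191 to 0.347 FPKM (3 reads, counting error only). All 37 mitochondrial genes were listed at 0.

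The test took genes reaching 1 FPKM in 4 or more libraries, with limma 3.58.1 in R 4.3.3 (eBayes with a trend) on log2(FPKM + 1), which understates changes of low genes, with day means plus batch, over all 16 libraries. The joint contrast is the mean of days 2, 4 and 7 minus day 0. Tests were two-sided with Benjamini-Hochberg adjustment at 0.05. Within-batch values came from a fit of day by batch. Copies were found with BLAST 2.17.0. Promoters are from RefSeq. The procedure was tested on simulated data.

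The comparison, the 43 gene lists and the tests were chosen with earlier results of these data known. Genes named were, among held genes with at least 5 FPKM in the higher group, the 14 largest rises and falls and the 5 most and least even over the days, up to 5 members of each list (2 for other cells), defining markers and the title's genes, without unnamed models, pseudogenes and duplicated names; the others are named as noted. Alternatives are given in the closing section. The result for 1 gene is not reported here.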

Additional observations from a re-analysis of the deposited data

Results flagged for a closer look

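Within a day, 25 of 288 groups of 4 libraries that were examined (8.7%) held a library far from the other 3, where chance gives about 1 in 20. Day 7 replicate 3 had 14127982 reads, above the other day 7 libraries. Among mean list levels on the log2(FPKM + 1) scale, day 2 replicate 4 was low for cytokines and chemokines (2.57) and for the mitochondrial ribosome (3.87), and day 2 replicate 1 was low for cholesterol synthesis (1.69) and Mueller glia (2.32). Day 4 replicate 2 was high for lysosome genes (7.77) and lineage transcription factors (3.75), and day 7 replicate 3 was high for cone genes (3.27).

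At day 0 the library apart from the rest was replicate 1 for Birc5 (0.46 FPKM), Tyms (1.69 FPKM), Cd52 (78.6 FPKM) and Psme2b (30.4 FPKM), and replicate 2 for Ccnb2 (0.193 FPKM) and Mrps18a (11.6 FPKM). Tipin in replicate 3 and Commd9 in replicate 4 were listed at 0. At day 4 it was replicate 3 for Ap2s1 (111.8 FPKM), Ifnar2 (30.9 FPKM) and Syn1 (9.84 FPKM), replicate 2 for Slc8b1 (4.56 FPKM) and Gpd2 (0.138 FPKM), replicate 1 for Baz2b (0.845 FPKM) and replicate 4 for Zdhhc14 (4.65 FPKM). Gpd2 was at 1.89 FPKM in day 2 replicate 3 and Syn1 at 2.2 FPKM in day 7 replicate 1.

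Of 68 named called genes 13 differed among the injured days (limma F test). The adjusted p was 0.0483 for Ccl2, 0.0324 for Ms4a4c, 0.0213 for Ccl4, 0.0039 for Ccl12, 0.0491 for Lilrb4a, 0.0223 for Ccl3 and 0.0208 for Clec7a. It was 0.0369 for Timm23, 0.03 for Psma5, 0.0137 for Cct8, 0.0346 for Pfn1, 0.0118 for Cdk4 and 0.0018 for Eif5a, whose changes were largest at day 4 (1.96 for Eif5a, against 0.25 at day 2 and 0.14 at day 7).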

How the results depend on the processing

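No call of a named gene changed sign under the alternatives run, but counts and calls did change; the causes were not tested unless fewer samples or genes show them. Genes higher and lower in the joint comparison numbered 192 and 46. They were 39 and 15 with no filter on low values, 117 and 22 with no batch, 117 and 16 with the full title code as batch, 55 higher with limma voom on recovered reads, 79 higher with median-of-ratios factors, 113 higher without the 2 libraries whose titles carry the letter F (day 2 replicates 3 and 4; the F libraries), 21 and 11 in batch 1 alone, 0 and 0 in batch 2 alone, 33 and 9 without day 4, and 0 and 0 with both lists (bipolar, Mueller) as covariates. Lower genes were 28 and 75 with pseudocounts of 0.1 and 5. Leaving out 1 library gave 78 to 164 higher and 20 to 75 lower. With the full title code, 70 of the 117 higher and 8 of the 16 lower genes were among the 192 and 46.

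Held genes, 32 higher and 10 lower, were 15 higher with no filter, 20 with median-of-ratios factors, 16 with voom, 20 higher and 4 lower with the full title code, 6 lower with a filter at 5 FPKM, 19 higher in batch 1 alone, 0 and 0 in batch 2 alone and with the covariates, 98 and 31 without day 2, 13 higher without day 4, and 131 and 23 without day 7, where fewer injured libraries must clear day 0. Leaving out 1 library gave 26 to 55 and 8 to 40. In batch 1 alone 4 of the 19 higher genes were among the 32, and 5 of the 42 held genes stayed held. Genes changed on each day were 0, and 2 with a pseudocount of 0.1, 1 without the F libraries, 6 without day 2, 25 without day 7, and 0 to 1 without a library.

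The F test among the injured days gave 203 genes, and 32 with no filter, 62 with median-of-ratios factors, 134 with no batch, 40 with the full title code, 117 with voom, 661 with arrayWeights, 7 with the covariates, 76 without the F libraries, 2 and 0 in batches 1 and 2 alone (limma, 2373 and 1610 at an unadjusted p under 0.05), 4 without day 4, 70 without day 7, and 46 to 203 without a library. The share of higher calls was 80.7%, 72% with a pseudocount of 5, 72.2% with no filter, 65.6% in batch 1 alone, 53.4% with voom and 60.3% with median-of-ratios factors.

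With the replicate number as a block in place of the batch, 96 genes were higher and 23 lower, 34 of the 42 held genes stayed held, and the F test called 106. Same-numbered libraries of different days had correlations of −0.06 to 0.23, and 6 of 16 libraries correlated best with their own number, so the numbers were not taken to pair the samples. Of the 238 called genes 61 kept the call in all 16 fits without a library, among them 19 of the 32 held higher and 7 of the 10 held lower genes. All 238 kept their sign in every alternative in which they were tested. FPKM of 3 reads in a gene of 1 kb, 0.191 to 0.347, limits what levels near 0 show.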
